A study of Homo sapiens with 4 samples.

Results

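The miR-135 family was followed across 4 miRNA arrays of human colonic adenocarcinoma cells in which the stem cell transcription factor Ascl2 had been knocked down. The family has 4 probes among the 1276 human miRNA probes of the array (1422 with the viral ones). They carry the names hsa-miR-135a, hsa-miR-135a*, hsa-miR-135b and hsa-miR-135b*, where the star marks the other arm of the hairpin. They were chosen by name, with earlier results of these arrays known, so the changes below are descriptions. The 4 samples were a knockdown line (shRNA-Ascl2) and a control line (shRNA-Ctr) made from each of HT-29 and LS174T cells, with 1 array each. HT-29 is an APC mutant line and LS174T a line with mutant CTNNB1, the gene of β-catenin. All 4 lines were stable transfectants of an EGFP plasmid kept under G418 (0.4 mg/ml in HT-29, 0.2 mg/ml in LS174T) and harvested after several passages. The shRNA-Ctr plasmid had no hairpin insert, so the control cells expressed no unrelated shRNA. The methods describe independent stable clones, and the sources used here do not say which of them went on the arrays. Ascl2 itself was not measured on these arrays, so the knockdown was not checked here.

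miRNAs are short RNAs that guide Argonaute proteins to messenger RNAs, mostly through pairing of the seed, a stretch near the 5′ end. miR-135a and miR-135b are known to pair with sites in the 3′ untranslated region of APC and to lower APC. APC is the scaffold of the complex that destroys β-catenin in the Wnt pathway, and miR-135b is known to be raised in colorectal carcinoma. Ascl2 is a basic helix-loop-helix factor and a Wnt target of intestinal stem cells.

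The sequences show what the 4 probes have to tell apart. Bases 2 to 8, the seed, are in capitals, and the sequences and positions are those of RefSeq on GRCh38.p14.
hsa-miR-135b (miR-135b-5p, MIR135B, chr1:205448361-205448383, minus strand): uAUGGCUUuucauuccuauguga
hsa-miR-135a (miR-135a-5p, MIR135A1, chr3:52294270-52294292, minus strand): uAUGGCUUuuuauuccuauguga
hsa-miR-135b* (miR-135b-3p, MIR135B, chr1:205448323-205448344, minus strand): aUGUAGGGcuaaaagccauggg
hsa-miR-135a* (miR-135a-3p, MIR135A1, chr3:52294232-52294253, minus strand): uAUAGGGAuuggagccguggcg

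miR-135a and miR-135b were identical at 22 of 23 bases, and the difference was U11C (miR-135a first, counted from the 5′ end). Their seed AUGGCUU was found in 2 of 2545 human mature entries of the RefSeq table, which are these 2 miRNAs. They thus share their seed with no other human miRNA of that table. The star arms were less alike, with the seeds UGUAGGG in miR-135b* and AUAGGGA in miR-135a*. At their best ungapped alignment the star arms had 14 identical bases. How far the probes of miR-135a and miR-135b separate sequences that differ at a single base was not tested. Both probes were lower after knockdown in HT-29 and went opposite ways in LS174T, as given below. Nothing on how far they separate the sequences is read from this.

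Both arms of miR-135b come from 1 hairpin, shown because both arms were measured. In it the 5′ arm and the 3′ arm are in capitals.
MIR135B hairpin (97 bases, chr1:205448302-205448398, minus strand): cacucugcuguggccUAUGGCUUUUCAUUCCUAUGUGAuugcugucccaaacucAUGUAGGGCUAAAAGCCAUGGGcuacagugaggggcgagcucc

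In the RefSeq table, MIR135B lies within the spans of LEMD1 and BLACAT1. MIR135A1 lies within the span of GLYCTK, and MIR135A2, the second locus of miR-135a, within that of RMST. MIR135A2 gives the same 5′ arm by name but a 3′ arm of its own, miR-135a-2-3p, for which none of the 4 probes is named. A probe of the manufacturer, hsa-miRPlus-J135a-2*, named here after its values were seen, had 4 to 12.8 scanner units on the 4 arrays. That is below the 99th percentile of empty spots, which was 13 to 21.

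Each member was printed as 4 spots, in 2 blocks of the array's 36. Signals are given in scanner units as foreground minus background, either unscaled or as levels scaled to the miRNA probes shared by the arrays compared. An error is the SD over the 4 spots of an array, which is technical. There were no replicate arrays, so the changes within a cell line have no p-value. A miRNA was called when its level differed 2-fold or more and the brighter array was above 50 before scaling. Where the dimmer array was below 50, it was raised to 50 and the fold was written as "at least".

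The shRNA-Ctr/LS174T array stood apart from the other 3. After scaling to miRNAs, 40 spike-in controls (synthetic RNAs added to each sample) were 8.60-fold brighter in the median on shRNA-Ascl2/LS174T than on shRNA-Ctr/LS174T. The same ratio was 1.01 in HT-29 and 0.985 between the shRNA-Ascl2 arrays. The 5 epithelial marker miRNAs (miR-200a, miR-200b, miR-200c, miR-141 and miR-429) summed to 22168 on shRNA-Ctr/LS174T and to between 153162 and 169902 on the other 3. The 3 colonic markers summed to 1187 there and to between 14855 and 24182 elsewhere. Of 5 blood cell markers, all 5 were above 50 on shRNA-Ctr/LS174T and 2 on each other array, with summed levels of 1501 there and 913 to 1708 elsewhere. Their red cell members miR-451 and miR-144 reached 352 and 270 on shRNA-Ctr/LS174T. Of 6 markers of stroma, endothelium and muscle, 0 to 2 were above 50 on each array. The landmark spike-ins also differed with position, and on shRNA-Ascl2/HT-29 they were 0.582 times as bright in blocks 19 to 36 as in blocks 1 to 18.

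In HT-29 cells miR-135b, the arm that targets APC, was far lower after knockdown of Ascl2. Its 4 spots read 1429, 1447, 1116 and 1095 on shRNA-Ctr/HT-29, and 209, 296, 63 and 50 on shRNA-Ascl2/HT-29. The lowest control spot was thus well above the highest knockdown spot. After scaling the level was 1216 ± 184 (SD, 4 spots) in control and 162 ± 124 in knockdown cells, which is 7.52-fold lower (log2 ratio -2.91). In RNA of a whole culture, less miRNA per cell and fewer cells that express it cannot be told apart. The spots of the knockdown array were split by position, with a mean of 252.5 in block 18 and 56.5 in block 36. The landmark signal of block 36 on that array was 0.313 of the array's mean, against 1.01 in block 18. With blocks 1 to 18 alone the ratio was 0.162, with blocks 19 to 36 alone 0.0628, and with the landmark correction 0.194. In the same 2 blocks, 9 of 31 other tested probes were 2-fold lower in HT-29 (29%), against 43 of 595 elsewhere.

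**Figure D1:**
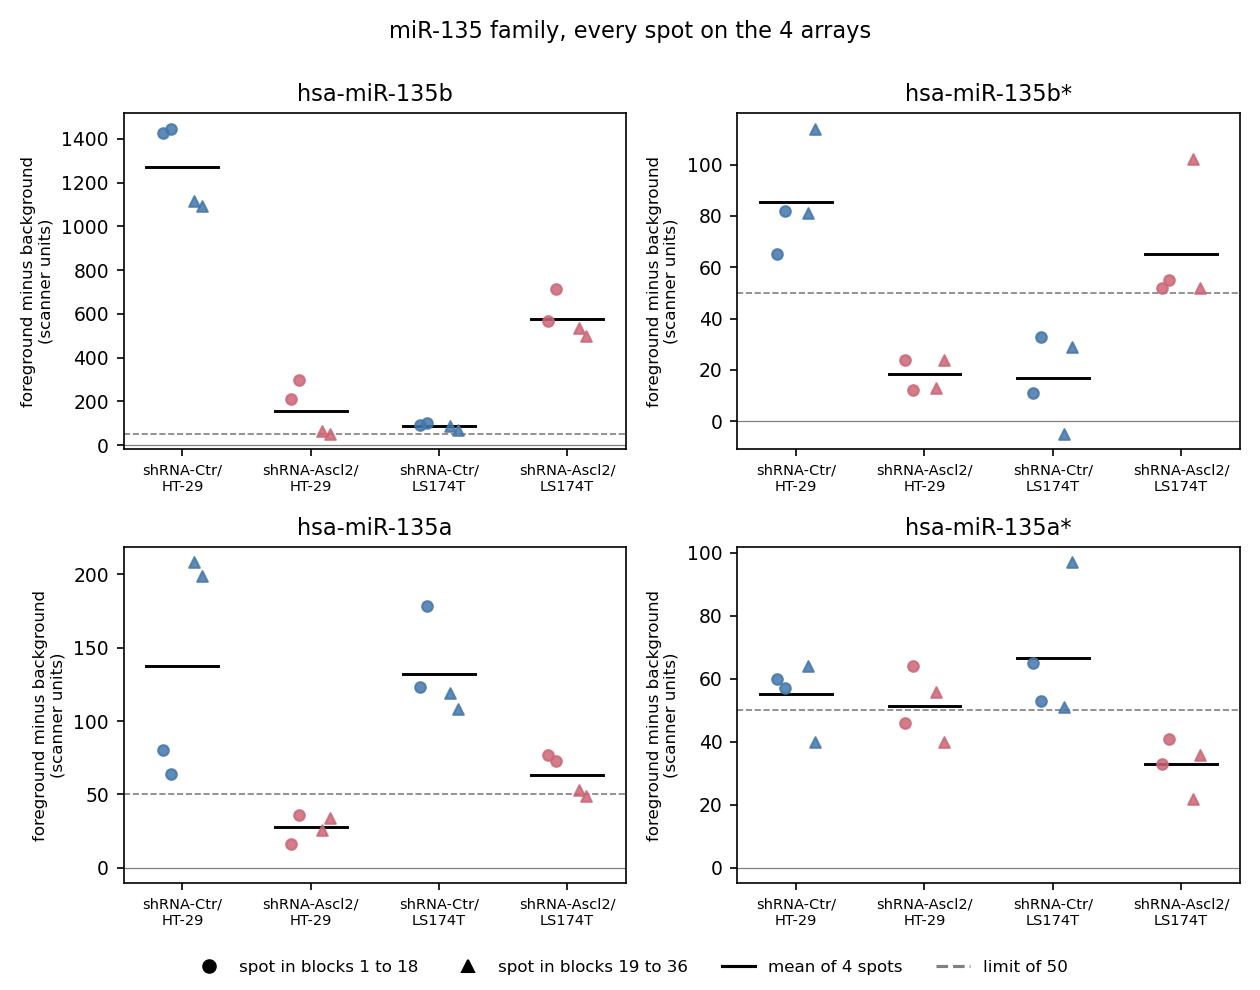
Every spot of the 4 members on the 4 arrays, in scanner units (foreground minus background, unscaled), with circles for blocks 1 to 18, triangles for blocks 19 to 36, a black line for the mean of 4 spots and a dashed line at 50. The miR-135b spots of shRNA-Ctr/HT-29 sit between 1095 and 1447 and those of shRNA-Ascl2/HT-29 between 50 and 296; the vertical scale differs between panels.

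In LS174T cells the miR-135b signal ran the other way. The spots read 93, 100, 86 and 69 on shRNA-Ctr/LS174T and 568, 714, 533 and 497 on shRNA-Ascl2/LS174T. No spot of the control array came near those of the knockdown array. The scaled level was 88.3 ± 13.5 in control and 570 ± 93.8 in knockdown cells, 6.46-fold higher (log2 ratio 2.69). This ratio rests on the array that stood apart. On the same 2 arrays all 5 epithelial markers were also called higher, by 5.56-fold to 8.56-fold, and the part of that shift in the miR-135b ratio was not tested. Scaling by the spike-ins instead of the miRNAs moved the median of all tested miRNAs in LS174T by -3.07 on the log2 scale and turned the miR-135b ratio to 0.766 (log2 ratio -0.38), short of a call. In HT-29 the spike-ins gave a miR-135b ratio of 0.155, still 2-fold lower.

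Across the 4 arrays, scaled together, miR-135b stood at 1138 ± 172 in shRNA-Ctr/HT-29, 636 ± 105 in shRNA-Ascl2/LS174T, 149 ± 114 in shRNA-Ascl2/HT-29 and 91.8 ± 14.0 in shRNA-Ctr/LS174T. Only the lowest neighbours of that order overlapped in their spots. Between the shRNA-Ctr arrays miR-135b was 12.8-fold higher in HT-29 than in LS174T. This ratio too rests on the array that stood apart. On the same arrays all 5 epithelial markers were called higher in HT-29, by 5.45-fold (miR-141) to 15.1-fold (miR-429). The part of that shift in the miR-135b ratio was not tested. Spike-in scaling brought miR-135b down to a log2 ratio of 0.51, which is no call. Between the shRNA-Ascl2 arrays miR-135b was 4.01-fold lower in HT-29. Without shRNA-Ctr/LS174T, the other 3 arrays scaled among themselves gave 1155 ± 175 in shRNA-Ctr/HT-29, 626 ± 103 in shRNA-Ascl2/LS174T and 157 ± 121 in shRNA-Ascl2/HT-29. The spots of these 3 arrays did not overlap.

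miR-135b*, the passenger arm of the same hairpin, had the same directions at a much dimmer signal. In HT-29 it was above 50 on shRNA-Ctr alone, and in LS174T on shRNA-Ascl2 alone. Its calls could thus go no other way, and nothing is read from their direction. Its spots read 65, 82, 81 and 114 on shRNA-Ctr/HT-29 and 24, 12, 13 and 24 on shRNA-Ascl2/HT-29. In LS174T they read 11, 33, -5 and 29 on shRNA-Ctr and 52, 55, 102 and 52 on shRNA-Ascl2. The spots of the 2 arrays did not overlap in either line. Scaled levels were 81.7 ± 19.6 and 19.1 ± 6.96 in HT-29, control first, which is at least 1.63-fold lower (measured ratio 0.234). In LS174T they were 17.2 ± 17.8 and 64.3 ± 24.2, at least 1.29-fold higher (measured ratio 3.73). With the spike-ins the LS174T log2 ratio turned to -1.18, while that of HT-29 was -1.88. The landmark signal of block 24, which holds 2 of the 4 spots, was 0.296 on shRNA-Ctr/LS174T and 1.12 on shRNA-Ascl2/LS174T. With the landmark correction miR-135b* was at least 1.43-fold higher in LS174T (measured ratio 2.21). Among the other probes of its blocks, 13 of 28 tested were called higher in LS174T (46.4%), against 165 of 640 elsewhere.

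miR-135a shares the seed and all but 1 base of miR-135b, yet it did not follow it in LS174T. Its spots read 80, 64, 208 and 199 on shRNA-Ctr/HT-29 and 16, 36, 26 and 34 on shRNA-Ascl2/HT-29. On shRNA-Ctr/LS174T they read 123, 178, 119 and 108, and on shRNA-Ascl2/LS174T 77, 73, 53 and 49. The control spots were higher in both lines without overlap. The scaled level fell from 132 ± 72.9 to 29.3 ± 9.51 in HT-29, at least 2.63-fold (measured ratio 0.222). It fell from 134 ± 31.8 to 62.1 ± 13.8 in LS174T, a ratio of 0.464. Unscaled, miR-135a read 132 and 63 in LS174T, control first, and the array's first negative control probe 65.5 and 28.3. The part of background in this fall was not tested. That LS174T call lies close to the threshold, and 6 of 12 alternatives, the landmark correction among them, left it short of 2-fold, with log2 ratios from -0.56 to -0.96. The wide spread on shRNA-Ctr/HT-29 followed position, with a mean of 72 in block 8 and 203.5 in block 26, where the landmark signals were 0.421 and 1.23.

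Between the control arrays miR-135a differed little, at a ratio of 0.915 (HT-29 over LS174T) with overlapping spots. The same 2 arrays differed 12.8-fold in miR-135b, and in the epithelial markers too. With blocks 1 to 18 alone miR-135a was called lower in HT-29 (log2 ratio -1.23), and with the spike-ins too (-3.30). Over the 4 arrays together its level was 139 ± 33.0 in shRNA-Ctr/LS174T, 123 ± 68.3 in shRNA-Ctr/HT-29, 69.3 ± 15.5 in shRNA-Ascl2/LS174T and 27.0 ± 8.75 in shRNA-Ascl2/HT-29. The first and the second overlapped, as did the second and the third.

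miR-135a*, the other arm of MIR135A1, stayed near the limit of detection on every array. Its spots read 60, 57, 64 and 40 on shRNA-Ctr/HT-29 and 46, 64, 56 and 40 on shRNA-Ascl2/HT-29. The LS174T spots read 65, 53, 51 and 97 on shRNA-Ctr and 33, 41, 22 and 36 on shRNA-Ascl2. The spots overlapped in HT-29 and were separate in LS174T. The HT-29 levels of 52.8 ± 10.1 and 53.9 ± 11.1 gave a ratio of 1.02. The LS174T levels of 67.5 ± 21.6 and 32.5 ± 7.93 gave at least 1.35-fold lower (measured ratio 0.482). A call in LS174T was lost under 7 of 12 alternatives, with log2 ratios from -0.36 to -0.95.

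The background near that signal was not low. The array's first negative control probe read 55.8 unscaled on both HT-29 arrays, 65.5 on the LS174T control array and 28.3 on the LS174T knockdown array. The unscaled means of miR-135a* were 55.3 (control) and 51.5 (knockdown) in HT-29, and 66.5 and 33 in LS174T. The other 6 negative control probes had medians between -12.1 and 0.125. Whether miR-135a* was present in these cells could not be read from this probe at this signal.

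By the call rule, 3 of 4 members were lower in HT-29 and 0 higher. Over all miRNA probes tested there, 8.45% were called lower and 4.63% higher, 13.1% in all. The family was chosen with this contrast known, so nothing is read from its share. In LS174T all 4 members were called, 2 higher (miR-135b and miR-135b*) and 2 lower (miR-135a and miR-135a*), where 54.4% of all tested probes were called. Of these, 26.8% were higher and 27.7% lower. Between the control arrays 2 of 4 were higher in HT-29, against 28.6% of all probes higher, 30.4% lower and 59% called in either direction. Between the shRNA-Ascl2 arrays 3 of 4 were lower in HT-29, against 15.7% of all probes lower and 27.6% called in either direction. The calls with a dim side below 50 (miR-135b* in every comparison, miR-135a in HT-29 and between the shRNA-Ascl2 arrays, miR-135a* in LS174T) carry a bound under 2-fold for all but miR-135a in HT-29. The direction of these calls was set by the limit, so nothing is read from it.

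Set beside the other human miRNAs measured in both lines, miR-135b had an extreme pair of ratios after scaling to miRNAs. The LS174T ratios rest on shRNA-Ctr/LS174T, which stood apart. With the spike-ins miR-135b was called lower in HT-29 (log2 ratio -2.69) and had no call in LS174T (-0.38). The median log2 ratio of the tested miRNA probes in LS174T was then -3.45. Of 536 human probes tested in both lines, 26 were lower in HT-29 and higher in LS174T, 4 the reverse, 4 lower in both and 2 higher in both. Both arms of miR-135b were among the 26, and miR-135a was among the 4 that were lower in both. In HT-29 both miR-135b* and miR-135a were above 50 on shRNA-Ctr alone. In LS174T miR-135b* was above 50 on shRNA-Ascl2 alone. Their calls there could go no other way, so nothing is read from where miR-135b* and miR-135a fall. The log2 ratio of miR-135b in HT-29 minus that in LS174T was -5.60, the second lowest of the 536 after miR-3146 at -6.24. With levels below 50 raised to 50, the same difference was -1.07 for miR-135b*, -0.29 for miR-135a and 0.46 for miR-135a*, against a median of 0.19 and a 5th percentile of -3.49. For dim members the raising to 50 limits the size of this difference, so nothing is read from the place of these 3 members. As measured it was -3.997 for miR-135b*, -1.06 for miR-135a and 1.08 for miR-135a*.

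Whether a member changed alike in HT-29 and LS174T was tested with limma over the 4 arrays, blocked by cell line, at 1 residual degree of freedom. This test was added after the values were seen. miR-135a had a common log2 change of -1.16 with a standard error of 0.41 (limma, adjusted p = 0.975), and it was lower in 2 of 2 lines. In HT-29 it was above 50 on shRNA-Ctr alone, so it could only be called lower there. Its LS174T call was lost under 6 of 12 alternatives. The common log2 change of miR-135b was -0.07 with a standard error of 1.73 (limma, adjusted p = 0.998), its ratios being opposite in the 2 lines. The common changes of miR-135b* (-0.05) and miR-135a* (-0.24) did not pass either. Of 713 miRNA probes, 0 passed an adjusted p of 0.05 in limma, and 0 an unadjusted p of 0.05. The spread in this fit is the difference between the lines, and shRNA-Ctr/LS174T, which stood apart, enters it. The test thus cannot show that no miRNA changed in common.

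**Figure D2:**
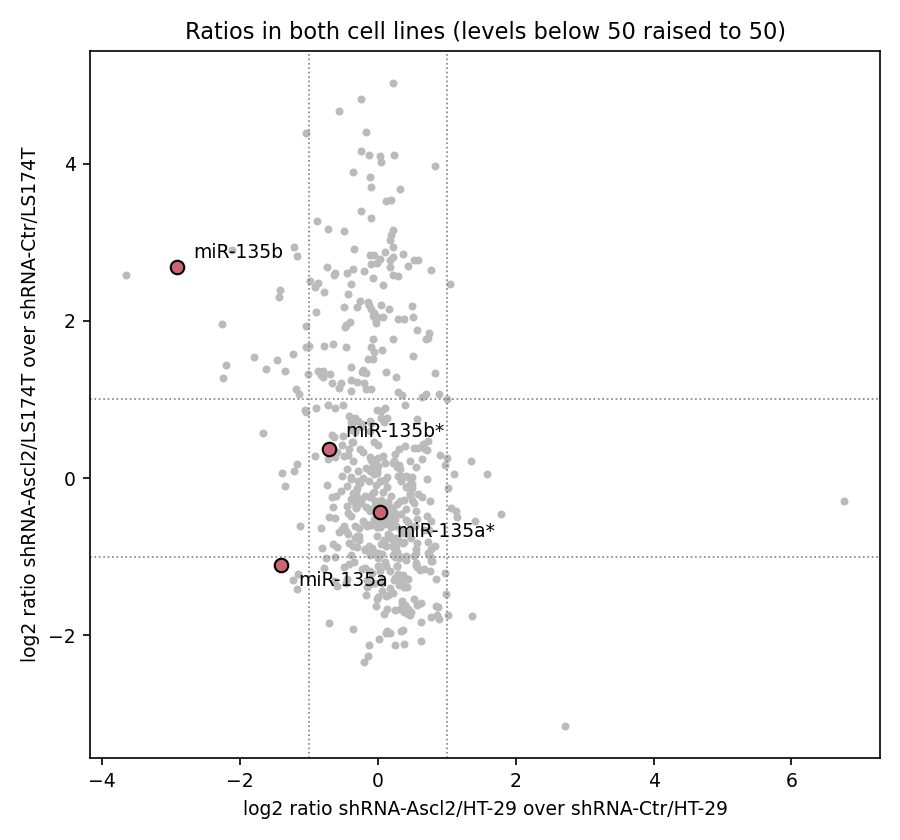
Log2 ratio of shRNA-Ascl2 over shRNA-Ctr in HT-29 (horizontal) and LS174T (vertical) for 536 human miRNA probes, with scaled levels below 50 raised to 50, the 4 members as red points and dotted lines at 2-fold. miR-135b lies at -2.91 and 2.69, away from miR-135a at -1.40 and -1.11.

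The miRNAs whose pattern over the 4 arrays was most like that of miR-135b were found by the distance between log2 levels, each centred on its own mean. Of 653 human probes ranked, the nearest were miR-3146 (distance 0.57), miR-620 (1.05), miR-3074 (1.15), miR-378c (1.18) and miR-1287 (1.35), against a median distance of 3.18. miR-3146 had levels of 586 and 35.6 in HT-29, control first, and 36.4 and 336 in LS174T. The other members ranked at 105 (miR-135b*), 309 (miR-135a) and 372 (miR-135a*). Low levels were raised to the limit beforehand, which keeps a dim member far from miR-135b whatever its directions. Nothing is thus read from these ranks. The centred values of miR-135b* were 0.33 and -0.28 in HT-29, control first, and -0.28 and 0.24 in LS174T. Those of miR-135b had the same signs, at 1.85 and -1.08, and at -1.78 and 1.01. miR-135a had the opposite signs in LS174T, at 0.66 and -0.34. The signs of miR-135b* were set by the raising to the limit, so nothing is read from their likeness to those of miR-135b. Of the 5 nearest, 3 (miR-620, miR-3074 and miR-378c) were printed in blocks 18 and 36, as miR-135b was. The part of position in this likeness was not tested. With the landmark correction 3 of the 5 were again among the nearest 5, behind miR-16 and miR-130b, and with blocks 1 to 18 alone 4 of the 5. When shRNA-Ctr/LS174T was left out, 4 of the 5 were among the nearest over the 3 arrays left.

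**Figure D3:**
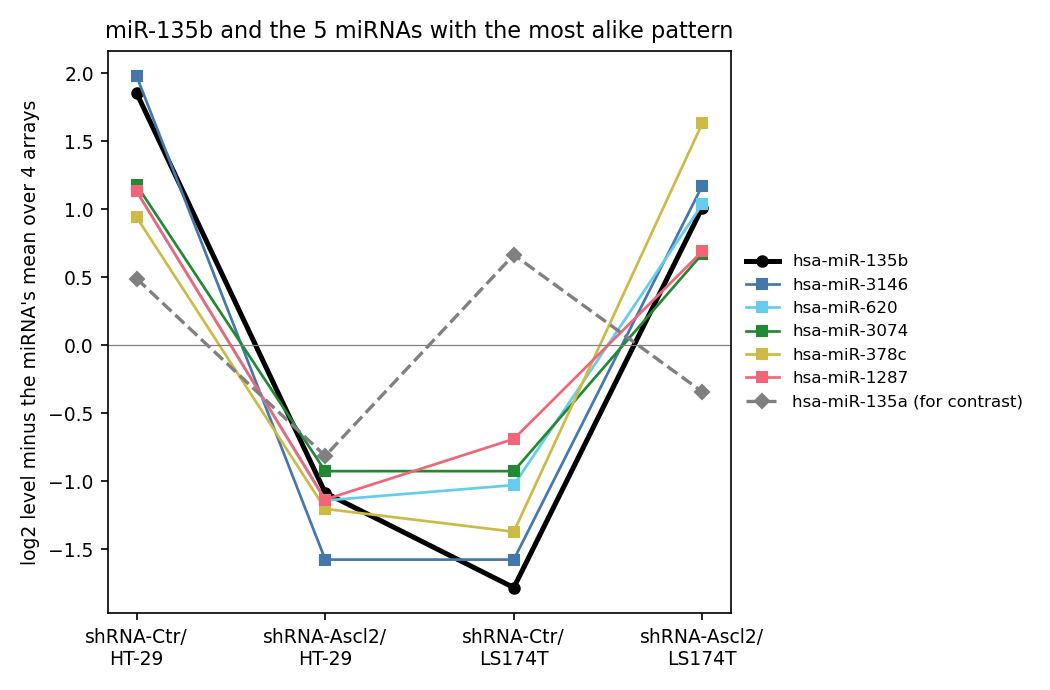
Log2 level minus the mean of the 4 arrays for miR-135b (black), the 5 miRNAs most like it and miR-135a (dashed, for contrast), with levels below 50 raised to 50 and lines joining the points of 1 miRNA. All 6 solid lines are above 0 on shRNA-Ctr/HT-29 and shRNA-Ascl2/LS174T, whereas miR-135a is above 0 on the 2 shRNA-Ctr arrays.

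Lists of related miRNAs, chosen with earlier results known, were counted beside the family. Of 11 miRNAs often raised in colorectal carcinoma, 10 had a probe by name. In HT-29, where 4.63% of all tested probes were higher and 8.45% lower, 0 of 9 tested were higher and 3 lower (miR-17, miR-20a and miR-106a, relatives by seed). Their median log2 ratio was -0.01 against 0.00 over 576 human probes. In LS174T, 26.8% of all tested probes were higher and 27.7% lower. Of the list, 7 of 10 were higher and 1 lower, with a median of 1.64 against -0.18. The lower one was above 50 on shRNA-Ctr/LS174T alone, so nothing is read from its direction. miR-20a, a member of the miR-17-92 cluster, was called in both lines in the directions of miR-135b, at 0.487 in HT-29 and 3.82 in LS174T. miR-31, with the highest level of the list on any array (15003, on shRNA-Ascl2/HT-29), had a ratio of 1.09 in HT-29 and 2.54 in LS174T.

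Of 7 miRNAs often lowered in colorectal carcinoma, 2 were bright enough to test in HT-29 and 4 in LS174T. In HT-29, 1 was lower and 0 higher (8.45% and 4.63% of all probes), with a median of -0.09. In LS174T all 4 were lower (27.7% of all probes), with a median of -0.64 against -0.18. Of these 4, miR-143 and miR-133a were above 50 on shRNA-Ctr/LS174T alone, at levels of 53.3 and 54.3, so their direction was set by the limit and nothing is read from it. The first negative control probe read 65.5 unscaled on that array. miR-195, a relative of miR-16, was lower in both lines, at 0.393 and 0.375, as miR-135a was. It is the 1 lower in HT-29, where it was above 50 on shRNA-Ctr alone, at levels of 105 and 40.7, control first. miR-135a too was above 50 in HT-29 on shRNA-Ctr alone. Either could thus only be called lower there, and nothing is read from their likeness in HT-29. Of 13 miRNAs with reported targets in the Wnt pathway, 1 of 9 was higher in HT-29 and 0 lower (4.63% and 8.45% of all probes), with a median of 0.22 against 0.00. In LS174T, 6 of 10 were higher and 1 lower (26.8% and 27.7% of all probes), with a median of 1.42 against -0.18. Of these 10, the lower miRNA was above 50 on shRNA-Ctr/LS174T alone, so nothing is read from its direction. The brightest of them, miR-200a, an epithelial marker too, was at 1.15 in HT-29 and 8.56 in LS174T. The rises of the first and the third list in LS174T were on the array pair where the epithelial markers rose too, and the part of that shift was not tested.

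The direction of miR-135b in HT-29 was the same under all 12 ways of processing tried, with log2 ratios between -3.99 and -2.33. In LS174T it was higher under 11 of 12, with the spike-in scaling as the exception. The other 2 called members in HT-29, miR-135b* and miR-135a, fell short of 2-fold under 2 of 12, normexp background correction and no background subtraction, and were lower throughout.

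**Figure D4:**
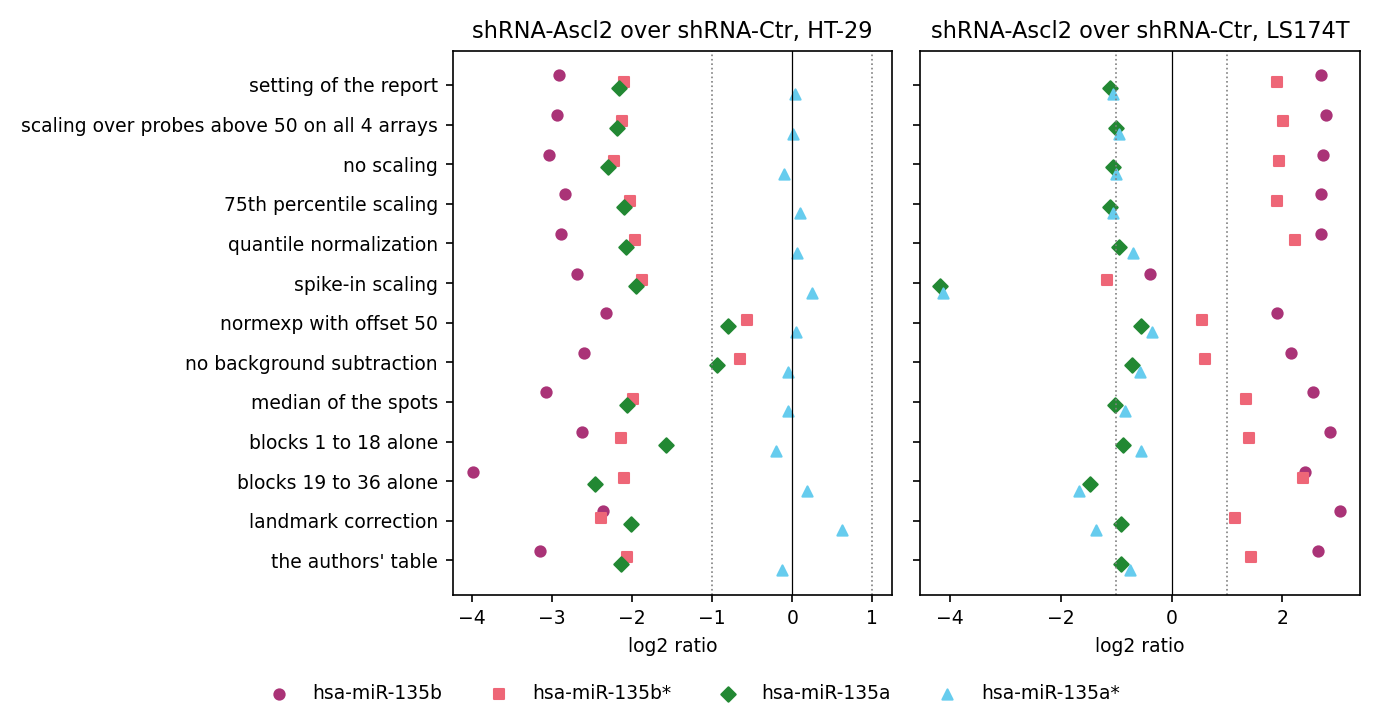
Log2 ratio of shRNA-Ascl2 over shRNA-Ctr for the 4 members under the setting used here and 12 alternatives, in HT-29 (left) and LS174T (right), with dotted lines at 2-fold. In HT-29 the miR-135b points lie between -3.99 and -2.33; in LS174T they lie between 1.90 and 3.03 except with spike-in scaling, at -0.38.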

How the data were processed

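Total RNA of 4 stable transfectants was hybridised to Exiqon miRNA arrays of the 6th generation (miRBase 16.0), 1 Hy3-labelled array each. The authors scanned the arrays and read spot intensities with GenePix Pro 6.0, and the deposited scanner tables hold foreground and background-subtracted intensities on a linear scale. A second deposited table holds ratios, the median of a probe's background-subtracted spots over 1 factor per array. It was used as an alternative. The authors' lists of fold changes were not used.

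Foreground minus background was averaged over the 4 spots of a probe. To scale, the signals of an array were divided by their median among named miRNA probes above 50 on both arrays compared (544 probes in HT-29, 507 in LS174T, 517 for the control arrays, 504 for the shRNA-Ascl2 arrays) and brought back to scanner units with the geometric mean of both medians. Levels over 4 arrays used the 471 probes above 50 on all 4. A miRNA was tested where the brighter array was above 50 (the limit in the headers of the authors' lists) and called at a ratio of 2 or more, or 0.5 or less. The number of arrays limits the precision, and changes within a line have no test with 1 array per condition. For a shared change, limma was blocked by cell line, with Benjamini-Hochberg adjustment, on log2 levels of the 713 probes above 50 on at least 1 array. The pairing comes from the labels, since both arrays of a pair are of the same cell line. For limma, list medians and pattern distances, levels below 50 were raised to 50.

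The members, the lists and the alternatives were chosen with earlier results of these data known. Named miRNAs are the 4 members, the 5 with the most alike pattern to miR-135b, and, of 3 lists, those called in both lines and the brightest, with the markers. Others (miR-17, miR-106a, miR-16, miR-130b, hsa-miRPlus-J135a-2*) were added once their values had been seen. The landmark correction divided each spot by its block's landmark signal, set to a mean of 1 per array. All 5 sequences looked up matched RefSeq by name. The calling was checked on simulated data with changes in bright probes only and no effect of position, so the check does not cover dim members. Python 3.11.15, pandas 2.3.3, numpy 2.4.6, R 4.3.3 and limma 3.58.1 (normexp, offset 50) were used.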

Additional observations from a re-analysis of the deposited data

Results flagged for a closer look

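Both arms of the MIR135B hairpin had opposite directions in the 2 cell lines after scaling to miRNAs. For miR-135b* the calls could go no other way, since it was above 50 only on shRNA-Ctr in HT-29 and only on shRNA-Ascl2 in LS174T. Its directions thus add nothing to those of miR-135b. The log2 ratio of miR-135b in HT-29 minus that in LS174T was -5.60. That of miR-135b* was -3.997 as measured, but its dim sides were near the empty spots, and with levels below 50 raised to 50 it was -1.07. The LS174T side of both rests on the shRNA-Ctr/LS174T array, which stood apart. With the spike-in scaling both arms had negative log2 ratios in both lines. They were -2.69 and -0.38 for miR-135b and -1.88 and -1.18 for miR-135b*, HT-29 first. The -0.38 is no call, and the median of the tested miRNA probes in LS174T was then -3.45. With 1 array per condition the difference between the lines was not tested.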

How the results depend on the processing

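In HT-29 the count of called miRNAs (82, with 29 higher and 53 lower) was 27 with normexp, 36 without background subtraction, 150 with blocks 19 to 36 alone, 127 with the landmark correction (70 higher, 57 lower), 466 with no limit, 209 at 1.5-fold and 29 at 3-fold. Its split was 20 higher and 63 lower with no scaling, 39 and 46 with the 75th percentile, and 56 and 39 with the spike-ins. In LS174T the count (364, with 179 higher and 185 lower) was 587 with the spike-ins (25 higher, 562 lower), 207 with normexp, 242 without background subtraction, 658 with no limit and 216 at 3-fold. Between the control arrays (402, with 195 higher and 207 lower) it was 227 with normexp, 263 without background subtraction, 754 with no limit and 227 at 3-fold, and the spike-ins gave 38 higher and 556 lower. The spike-ins moved the median log2 ratio of all tested miRNAs by 0.22 in HT-29, -3.07 in LS174T, -3.17 between the control arrays and 0.20 between the shRNA-Ascl2 arrays. The cause of these shifts was not tested.

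Members called in HT-29 (3) came to 1 with normexp and 1 without background subtraction. In LS174T (4) they came to 1 under each of these, and to 2 with quantile normalization, blocks 1 to 18 alone, the authors' table, a limit of 100 and a threshold of 3-fold. Between the control arrays (2) they came to 1 with normexp, without background subtraction and with a limit of 100.

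With the spike-ins, log2 ratios in LS174T turned for miR-135b (-0.38) and miR-135b* (-1.18). For the control arrays miR-135b* turned (-1.03), miR-135b lost its call (0.51), and miR-135a (-3.30) and miR-135a* (-3.63) gained a call. With normexp and without background subtraction, in that order, calls were lost for miR-135b* in HT-29 (-0.57, -0.66), in LS174T (0.54, 0.60), between the control arrays (0.67, 0.67) and between the shRNA-Ascl2 arrays (-0.51, -0.63). They were lost likewise for miR-135a in HT-29 (-0.81, -0.94), in LS174T (-0.56, -0.72) and between the shRNA-Ascl2 arrays (-0.37, -0.35), and for miR-135a* in LS174T (-0.36, -0.58). In LS174T miR-135a was also short of a call with quantile normalization (-0.96), blocks 1 to 18 alone (-0.89), the landmark correction (-0.91) and the authors' table (-0.92). miR-135a* was short of it there with the scaling over probes above 50 on all 4 arrays (-0.95), quantile normalization (-0.70), the median of the spots (-0.85), blocks 1 to 18 alone (-0.55) and the authors' table (-0.75). The control arrays gave miR-135a a call with blocks 1 to 18 alone (-1.23) and miR-135a* with the landmark correction (-1.25). Between the shRNA-Ascl2 arrays miR-135a lost it with blocks 19 to 36 alone (-0.61). miR-135b kept its call in HT-29 and between the shRNA-Ascl2 arrays under all 12 alternatives. Of the alternatives, the 2 that left out shRNA-Ctr/LS174T and the 2 for the most alike miRNAs were chosen after seeing the data. The fit with cell line as a replicate block was added then too. Without the block limma again called 0 of 713 probes, with 4 at an unadjusted p under 0.05, and the block changed no call of a member.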
